A study of Mus musculus with 10 samples.

Results

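The 10 genes described here form the cell-cycle entry switch built on cyclin-dependent kinase (CDK) 4 and CDK6: the CDK inhibitors Cdkn1a, Cdkn1b, Cdkn2a, Cdkn2c and Cdkn2d, the D cyclins Ccnd1, Ccnd2 and Ccnd3, and the kinases Cdk4 and Cdk6. They were taken by symbol, from a list drawn up with earlier results of these data known, and all 10 were found among the 46959 genes of the deposited count table. The series measured RNA in 10 mouse libraries to follow how histone deacetylase (HDAC) inhibition and the KOKI genotype bear on transcription, and its stated subject is the immunoglobulin heavy chain locus.

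The 4 femoral libraries, labelled femoral B cells, were extracted without culture from pools of 3 mice each. They were 1 pool of KOKI mice lacking RAG2 and gamma c, 1 pool of KOKI mice lacking RAG2 alone, and 2 control pools of mice lacking RAG2 and gamma c without KOKI, so every femoral animal lacked RAG2. RAG2 is needed to rearrange antigen receptor genes, and gamma c is a receptor chain shared by several interleukins. The 6 splenic libraries came from CD43-negative spleen cells, a fraction rich in resting B cells, kept for 2 days in 10% fetal calf serum with 5 µg/ml of the B cell mitogen lipopolysaccharide (LPS). They comprised KOKI cultures (KOKI LPS, n = 2), WT cultures that also received 200 ng/ml SAHA (vorinostat, an HDAC inhibitor) at the start (WT LPS+SAHA, n = 2) and cultures of wild-type BLACK-6 mice with LPS alone (WT LPS, n = 2). The labels do not spell out KOKI. For the KOKI cultures the title and the design text name LPS alone while the treatment label names LPS and SAHA. They are therefore set against both WT groups below.

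Total counts per library ran from 18614742 to 29314068. The second WT LPS+SAHA library stood apart, with at least 1 count on 31524 genes, against 17957 to 22335 genes in the other 9. Markers of mature B cells (9 genes) summed to 14.8 to 18.9 CPM (counts scaled to library size) in the femoral libraries, where Cr2 was at 0 in all 4, and to 2591 to 4290.1 CPM in the splenic ones. Against their label, the femoral libraries carried 13263 to 20617 CPM of 10 neutrophil markers and 9365 to 12478 CPM of 10 erythroid markers, and only 230 to 301 CPM of 8 early B cell markers. They are called femoral cells here. In such bulk samples, fewer cells of a type and less RNA per cell cannot be told apart.

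D cyclins bind CDK4 and CDK6, and the active complexes phosphorylate the retinoblastoma protein, which releases E2F factors that switch on genes for DNA replication. The INK4 proteins, encoded by Cdkn2a, Cdkn2c and Cdkn2d, bind CDK4 and CDK6 directly and keep D cyclins off. The CIP/KIP proteins p21 (Cdkn1a) and p27 (Cdkn1b) inhibit cyclin E and cyclin A complexes of CDK2 and also bind cyclin D complexes. In B cells, cyclin D2 is the D cyclin known to be induced by mitogens such as LPS, and p21 is the classic gene that HDAC inhibitors switch on in many cultured cell lines.

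The promoters of 3 members are shown. These are Cdk4, whose level was lower with SAHA, and Cdkn2a, which was higher in KOKI than in SAHA cultures. The third is Cdkn1a, the textbook HDAC inhibitor target, which passed no test in the cultures. RefSeq windows (GRCm38.p6, 250 bases before to 50 after a start) existed for 8 of the 10 genes, 12 windows in all. Ccnd1 and Ccnd2 had none. Each is given 5′ to 3′ on the gene's strand. Capitals mark the E-box CACGTG, the site of MYC family proteins, in Cdk4, and the GC box GGGCGG, the site of SP family proteins, in the others. Both strands were searched, and no motif overlapped another marked one.
Cdk4, chr10:127063285-127063584, plus strand: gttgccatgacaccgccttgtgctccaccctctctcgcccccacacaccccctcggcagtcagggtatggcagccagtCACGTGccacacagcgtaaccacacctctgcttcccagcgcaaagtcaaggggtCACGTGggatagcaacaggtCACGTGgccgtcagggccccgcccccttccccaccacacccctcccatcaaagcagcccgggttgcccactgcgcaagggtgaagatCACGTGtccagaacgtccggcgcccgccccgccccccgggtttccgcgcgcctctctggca
Cdkn1a, chr17:29093519-29093818, plus strand: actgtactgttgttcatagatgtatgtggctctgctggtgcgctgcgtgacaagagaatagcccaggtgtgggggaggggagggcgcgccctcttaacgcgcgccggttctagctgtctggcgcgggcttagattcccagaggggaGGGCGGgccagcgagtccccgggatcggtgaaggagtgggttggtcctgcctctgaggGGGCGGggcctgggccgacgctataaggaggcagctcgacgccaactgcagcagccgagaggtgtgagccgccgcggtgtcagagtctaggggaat
Cdkn2a, p16 start, chr4:89282143-89282442, minus strand: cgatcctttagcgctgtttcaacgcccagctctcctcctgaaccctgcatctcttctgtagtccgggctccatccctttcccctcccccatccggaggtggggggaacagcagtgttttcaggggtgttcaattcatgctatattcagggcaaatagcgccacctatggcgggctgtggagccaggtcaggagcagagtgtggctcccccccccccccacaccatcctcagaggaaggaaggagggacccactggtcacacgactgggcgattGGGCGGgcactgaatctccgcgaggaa
Cdkn2a, Arf start, chr4:89294570-89294869, minus strand: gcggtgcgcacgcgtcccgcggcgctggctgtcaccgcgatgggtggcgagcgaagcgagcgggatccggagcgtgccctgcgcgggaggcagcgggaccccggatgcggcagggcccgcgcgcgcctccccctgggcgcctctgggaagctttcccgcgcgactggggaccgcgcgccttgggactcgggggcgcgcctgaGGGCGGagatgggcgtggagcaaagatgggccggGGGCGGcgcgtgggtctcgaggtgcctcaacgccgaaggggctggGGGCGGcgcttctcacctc

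The Cdk4 window held 4 E-boxes, a number reached or passed in 8 of the 32851 promoter windows searched (0.0244%), while at least 1 E-box stood in 7.15% of them. The Cdkn1a window shown held 2 GC boxes, the p16 window 1 and the Arf window 3. A second Cdkn1a window, chr17:29090729-29091028 at the start of the annotated gene, held 0 and is not shown, and the Cdk4 window also held 3 GC boxes, left in lower case. At least 1 GC box stood in 35.7% of all windows, at least 2 in 19.5% and at least 3 in 10.7%. Among the member windows not shown, that of Cdkn2d held 5 GC boxes and 1 of Cdkn2c held 4. A match describes these letters only.

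In WT cultures, Ccnd2 and Cdk4, the mitogen-induced D cyclin and a partner kinase, fell with SAHA. Without pairing of the libraries no CDK inhibitor passed, and with the WT libraries paired by number Cdkn1b, which encodes p27, also rose and Cdk6 fell. With that pairing 22.8% of 14961 genes passed. Of the 10 genes 9 had enough counts to be tested, and without pairing 2 fell, 0 rose and 7 did not pass (edgeR quasi-likelihood test, Benjamini-Hochberg adjusted p under 0.05). Over all 15342 genes tested, 4.64% changed, 0.952% rising and 3.69% falling. The median log2 fold change was -0.39 over the 9 genes, against 0.02 over all genes. KOKI cultures held more Cdk4, Cdkn2a and Cdkn2c RNA than SAHA-treated WT cultures, where 23.7% of all genes differed and 14.1% were higher in KOKI. None of the 9 genes passed between KOKI and WT LPS cultures, where 4.08% of all genes did.

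**Figure D1:**
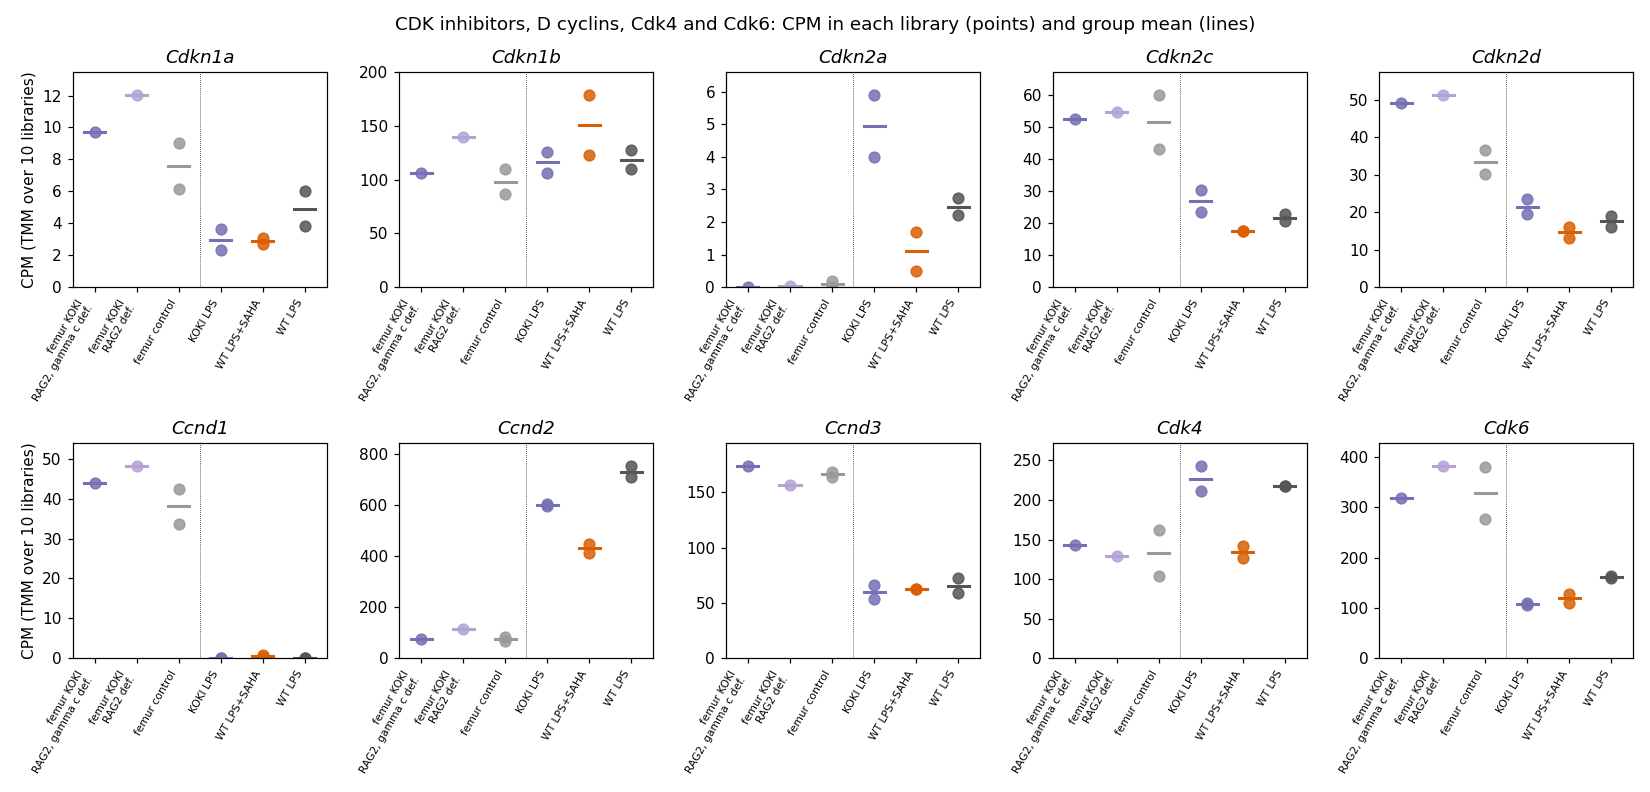
CPM (TMM scale over all 10 libraries) of each gene on a linear axis from 0, 1 point per library and a line at the group mean, with femoral pools left and splenic cultures right of the dotted line. Ccnd2 stood at 603 and 594 CPM in KOKI cultures, 447 and 413 CPM in WT LPS+SAHA cultures and 751 and 707 CPM in WT LPS cultures, and Ccnd1 was near 0 in every splenic library.

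Cdkn1a (chr17:29090979-29100722, plus strand, mm10), which encodes p21, was scarce in the splenic cultures. It had 2.30 and 3.63 CPM in KOKI cultures and 3.05 and 2.72 CPM in WT LPS+SAHA cultures, against 6.02 and 3.81 CPM in WT LPS cultures. Both WT LPS libraries lay above all 4 others, and the first exceeded the second. The log2 fold change was -0.71 (SE 0.39, edgeR adjusted p = 0.296) with SAHA and -0.69 (SE 0.39, edgeR adjusted p = 0.416) in KOKI cultures, both against WT LPS. These levels rest on 54 and 59 counts in the WT LPS+SAHA libraries and 141 and 102 counts in the WT LPS libraries. The direction with SAHA was opposite to the textbook induction of p21, and the difference did not pass the test.

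Cdkn1b (chr6:134920401-134925513, plus strand), which encodes p27, a brake on cyclin E and A kinases in resting cells, was the most abundant inhibitor per length in the cultures. It had 106 and 126 CPM in KOKI cultures and 179 and 122 CPM in WT LPS+SAHA cultures, against 127 and 109.8 CPM in WT LPS cultures. The first SAHA library lay above both WT LPS libraries and the second lay between them. Each SAHA library exceeded the WT LPS library of its own number, with 179 against 127 CPM and 122 against 109.8 CPM. The log2 fold change with SAHA was 0.40 (SE 0.20, edgeR adjusted p = 0.249), and with the replicate number as a block Cdkn1b rose, by 0.38 (edgeR adjusted p = 0.0428). The value of KOKI over WT LPS was 0.01 (SE 0.20).

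Cdkn2a (chr4:89274471-89294653, minus strand) encodes 2 proteins from separate first exons, the INK4 protein p16 and Arf, which stabilises p53, and its count sums the RNA of both. It had 3.99 and 5.90 CPM in KOKI cultures and 1.69 and 0.508 CPM in WT LPS+SAHA cultures, against 2.22 and 2.73 CPM in WT LPS cultures. The 3 groups did not overlap, with KOKI highest and SAHA lowest. KOKI exceeded WT LPS+SAHA by a log2 fold change of 2.17 (SE 0.57, edgeR adjusted p = 0.0296), resting on 97 and 104 counts in KOKI libraries against 30 and 11 counts in WT LPS+SAHA libraries. The value was 3.26 without the first SAHA library and 1.53 without the second (edgeR adjusted p = 0.0838), and the call also ended without either KOKI library. Against WT LPS, with 52 and 73 counts, neither the SAHA value of -1.14 (SE 0.57, edgeR adjusted p = 0.254) nor the KOKI value of 1.03 (SE 0.53, edgeR adjusted p = 0.375) passed. The SAHA value against WT LPS was -2.23 without the first SAHA library and -0.51 without the second.

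Cdkn2c (chr4:109660876-109667189, minus strand) encodes p18, the INK4 protein known to restrain B cell and plasma cell division. It had 30.2 and 23.5 CPM in KOKI cultures and 17.5 and 17.6 CPM in WT LPS+SAHA cultures, against 22.8 and 20.5 CPM in WT LPS cultures. The order of the groups was that of Cdkn2a, again without overlap. KOKI over WT LPS+SAHA gave a log2 fold change of 0.60 (SE 0.16, edgeR adjusted p = 0.0331). The SAHA and KOKI values against WT LPS were -0.25 (SE 0.16, edgeR adjusted p = 0.381) and 0.35 (SE 0.16, edgeR adjusted p = 0.318).

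Cdkn2d (chr9:21288463-21291209, minus strand), which encodes the INK4 protein p19, had 23.4 and 19.5 CPM in KOKI cultures and 13.2 and 16.0 CPM in WT LPS+SAHA cultures, against 19.0 and 16.1 CPM in WT LPS cultures. KOKI was again highest and SAHA lowest, with gaps between groups smaller than those within them. No contrast passed: the log2 fold change was -0.21 (SE 0.18) for SAHA over WT LPS, 0.33 (SE 0.18) for KOKI over WT LPS and 0.53 (SE 0.18, edgeR adjusted p = 0.0651) for KOKI over WT LPS+SAHA.

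Among the D cyclins, Ccnd2 (chr6:127125162-127152193, minus strand) made up most of the D cyclin RNA in the cultures. It had 603 and 594 CPM in KOKI cultures and 447 and 413 CPM in WT LPS+SAHA cultures, against 751 and 707 CPM in WT LPS cultures. Every SAHA library lay below every KOKI library, and those below every WT LPS library. Group means were 599 ± 6.87 CPM in KOKI cultures, 430.1 ± 24.5 CPM in WT LPS+SAHA cultures and 729 ± 31.0 CPM in WT LPS cultures (SD, n = 2 each). With SAHA, Ccnd2 fell by 0.71 on the log2 scale (SE 0.16, edgeR adjusted p = 0.0492), to 0.613 of the WT LPS level. The intermediate KOKI level passed neither test, with a log2 fold change of -0.25 (SE 0.16, edgeR adjusted p = 0.492) against WT LPS and 0.46 (SE 0.16, edgeR adjusted p = 0.0733) against WT LPS+SAHA.

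Ccnd3 (chr17:47505051-47599691, plus strand), which encodes cyclin D3, known to be needed by germinal centre and pre-B cells, had 53.5 and 65.9 CPM in KOKI cultures and 62.7 and 62.4 CPM in WT LPS+SAHA cultures, against 59.1 and 72.3 CPM in WT LPS cultures. All 3 groups overlapped, and the log2 fold change was -0.02 (SE 0.16) with SAHA, with a sign that turned under another scaling, and -0.10 (SE 0.16) in KOKI over WT LPS cultures. Ccnd3 shares 361 exonic bases with Bysl on the opposite strand, which had 538 to 1301 counts in the splenic libraries against 1111 to 1934 for Ccnd3. The strand setting of the counting is not given in the sources used here, so reads of the 2 genes may not be separated.

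Ccnd1 (chr7:144929931-144939869, minus strand), which encodes cyclin D1, the D cyclin of many non-lymphoid tissues, had 0 and 0 counts in the KOKI libraries and 4 and 20 counts in the WT LPS+SAHA libraries, against 0 and 3 counts in the WT LPS libraries, and was not tested in spleen. A count of 0 allows up to 3 counts, which is 0.123 and 0.170 CPM in the KOKI libraries. The summed counts with SAHA were 10.2 times those in WT LPS after scaling (95% exact interval 3.09 to 52.9, counting error only). Of the 24 SAHA counts, 20 were in the library with counts on 31524 genes. Ccnd1 shares 818 exonic bases with Oraov1 on the opposite strand, which had 165 to 317 counts in the splenic libraries.

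Cdk4 (chr10:127063534-127067920, plus strand), the kinase most abundant per length, had 212 and 243 CPM in KOKI cultures and 126 and 141 CPM in WT LPS+SAHA cultures, against 218 and 218 CPM in WT LPS cultures. Both SAHA libraries lay far below the 4 others, and the KOKI libraries lay on either side of WT LPS. Means were 227 ± 22.0 CPM in KOKI cultures, 134 ± 10.7 CPM in WT LPS+SAHA cultures and 218 ± 0.165 CPM in WT LPS cultures (SD, n = 2 each). Cdk4 fell by 0.65 on the log2 scale with SAHA (SE 0.15, edgeR adjusted p = 0.0484), to 0.638 of the WT LPS level. KOKI exceeded WT LPS+SAHA by a log2 fold change of 0.75 (SE 0.15, edgeR adjusted p = 0.0105) and differed from WT LPS by 0.10 (SE 0.15, edgeR adjusted p = 0.807). Tspan31, which shares 604 exonic bases on the other strand and had 580 to 1078 counts, against 2238 to 5823 for Cdk4, had a log2 fold change of -0.17 (edgeR adjusted p = 0.543) with SAHA and 0.64 (edgeR adjusted p = 0.0225) in KOKI over WT LPS+SAHA.

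Cdk6 (chr5:3341485-3531008, plus strand), the partner kinase prominent in blood cells, had 109.8 and 107 CPM in KOKI cultures and 128 and 110.5 CPM in WT LPS+SAHA cultures, against 164 and 159 CPM in WT LPS cultures. Both treated and KOKI cultures lay below WT LPS without overlap. The log2 fold change was -0.39 (SE 0.13, edgeR adjusted p = 0.120) with SAHA and -0.54 (SE 0.13, edgeR adjusted p = 0.0678) in KOKI over WT LPS, neither passing. With the replicate number as a block Cdk6 fell with SAHA (edgeR adjusted p = 0.0328). KOKI and SAHA cultures differed by -0.16 (SE 0.13, edgeR adjusted p = 0.420).

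**Figure D2:**
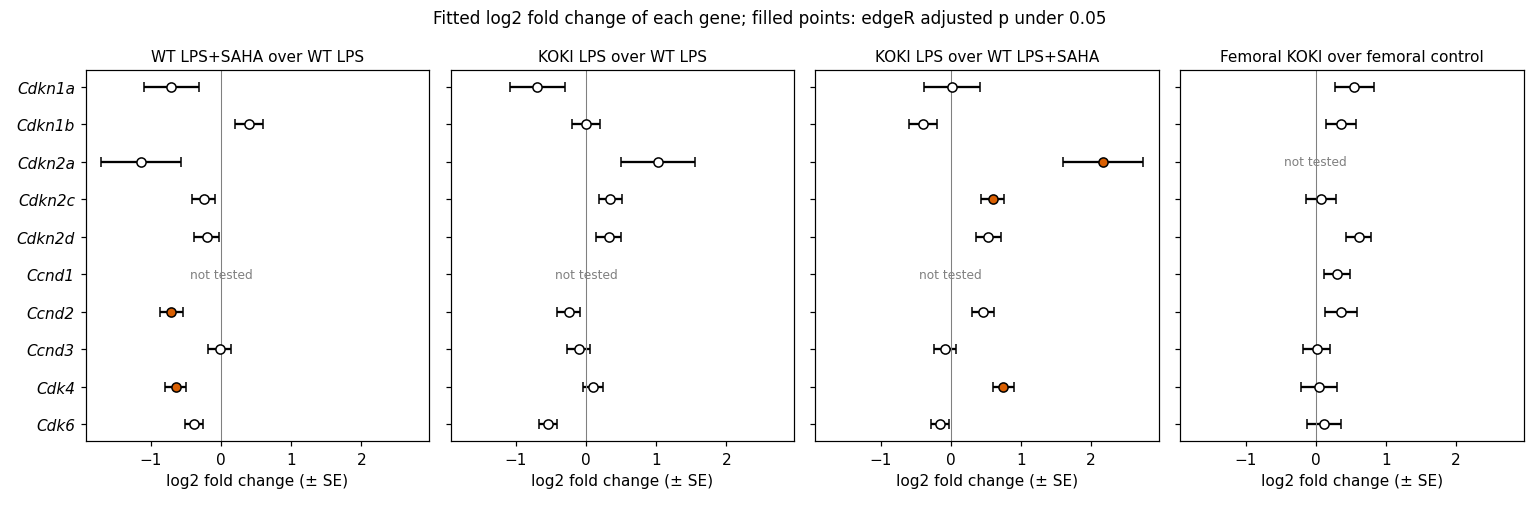
Fitted log2 fold change (point) with its standard error (bar) of each gene in 4 comparisons, filled where the edgeR adjusted p was under 0.05. Ccnd2 and Cdk4 were filled on the lower side with SAHA, Cdkn2a, Cdkn2c and Cdk4 on the higher side in KOKI over WT LPS+SAHA, and no point was filled in the other comparisons.

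In KOKI over WT LPS cultures, 0 of 9 genes passed, where 4.08% of the 15342 genes tested did by edgeR. At an unadjusted p under 0.05 by edgeR there was 1, Cdk6, where 2678 of the 15342 genes were. DESeq2 also called 1, Cdk6, with an adjusted p of 0.00719, and 1097 of all genes. In KOKI over WT LPS+SAHA cultures, 3 of 9 were higher and 0 lower, where 23.7% of all genes changed and 14.1% were higher. The SAHA and the KOKI contrast share the WT LPS libraries, and the KOKI against SAHA contrast shares the SAHA libraries. In the KOKI over SAHA contrast, leaving out any 1 of the 4 compared libraries left 1 of the 3 calls: Cdk4 without the first KOKI or the second SAHA library, Cdkn2c without the second KOKI library and Cdkn2a without the first SAHA library. In a fit of all 10 libraries none of the 3 passed, with edgeR adjusted p of 0.113 for Cdkn2a, 0.0852 for Cdkn2c and 0.0521 for Cdk4.

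In the main fit the SAHA calls lay close to the threshold. With the replicate number as a block the edgeR adjusted p was 0.00431 for Ccnd2 and 0.00254 for Cdk4. DESeq2 gave adjusted p of 1.49e-05 and 0.00148. Under another scaling (RLE) neither passed, with edgeR adjusted p of 0.0580 and 0.0555. Leaving out any 1 of the 6 splenic libraries, which left 1 library in a group, ended both calls. Calls over all genes also fell in each of those fits. The log2 fold changes stayed between -0.78 and -0.66 for Ccnd2 and between -0.74 and -0.58 for Cdk4. The library names of WT cultures of the same number share a stem with and without SAHA, and with that number as a block 4 of 9 genes passed, where 22.8% of 14961 genes did: Ccnd2, Cdk4 and Cdk6 fell and Cdkn1b rose. Cell type markers moved with these groups. The 9 for mature B cells had a sum of 2591 and 2764 CPM in KOKI cultures, 3485 and 4290.1 CPM in WT LPS+SAHA cultures and 2747 and 2943 CPM in WT LPS cultures. Plasmablast markers (7 genes) summed to 1306 and 1173 CPM in KOKI cultures, 359 and 442 CPM in WT LPS+SAHA cultures and 535 and 568 CPM in WT LPS cultures. Macrophage and monocyte markers (8 genes) summed to 14.6 and 15.7 CPM in KOKI cultures, 43.7 and 51.5 CPM in WT LPS+SAHA cultures and 24.5 and 26.0 CPM in WT LPS cultures. These sums are scaled to library totals without TMM, whose factors were 0.900 and 1.10 in the first and second WT LPS+SAHA libraries. The factors were 0.883 to 0.947 in the other splenic libraries. With SAHA, 2 of 9 tested mature B cell markers rose, 3 of 6 plasmablast markers fell and 1 of 6 macrophage markers rose. Over all genes 0.952% rose and 3.69% fell. The part of these cell types in the results was not tested.

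Per length, in CPM per kilobase of exon (RPKM), 1 member led each family in the cultures. Ccnd2 made up 85.6% to 92.2% of D cyclin RPKM in the 6 splenic libraries, and Ccnd3 7.78% to 13.9%. The Ccnd2 share was 91.3% and 89.4% in KOKI cultures and 86.8% and 85.6% in WT LPS+SAHA cultures, against 92.2% and 90.1% in WT LPS cultures, and the summed D cyclin RPKM was 70.2 and 70.6 in KOKI and 54.8 and 51.2 in WT LPS+SAHA, against 86.6 and 83.4 in WT LPS cultures. Cdk4 made up 81.0% to 90.7% of the kinase RPKM, highest in both KOKI libraries. Among CDK inhibitors Cdkn1b made up 40.6% and 47.3% in KOKI cultures and 66.6% and 56.3% in WT LPS+SAHA cultures, against 49.9% and 49.8% in WT LPS cultures. The inhibitor sum was 57.4 and 58.4 RPKM in KOKI and 59.0 and 47.7 RPKM in WT LPS+SAHA, against 56.1 and 48.5 RPKM in WT LPS cultures.

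In WT LPS cultures the RPKM levels ran, from high to low, Ccnd2 (77.5 ± 3.30), Cdk4 (67.1 ± 0.0508), Cdkn1b (26.1 ± 2.74), Cdkn2d (13.8 ± 1.65), Cdk6 (11.6 ± 0.281), Cdkn2c (8.07 ± 0.608), Ccnd3 (7.49 ± 1.07), Cdkn1a (2.21 ± 0.702), Cdkn2a (2.11 ± 0.308) and Ccnd1 (0.0146 ± 0.0207), as mean ± SD with n = 2. Cdkn2c and Ccnd3, and Cdkn1a and Cdkn2a, overlapped between libraries.

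**Figure D3:**
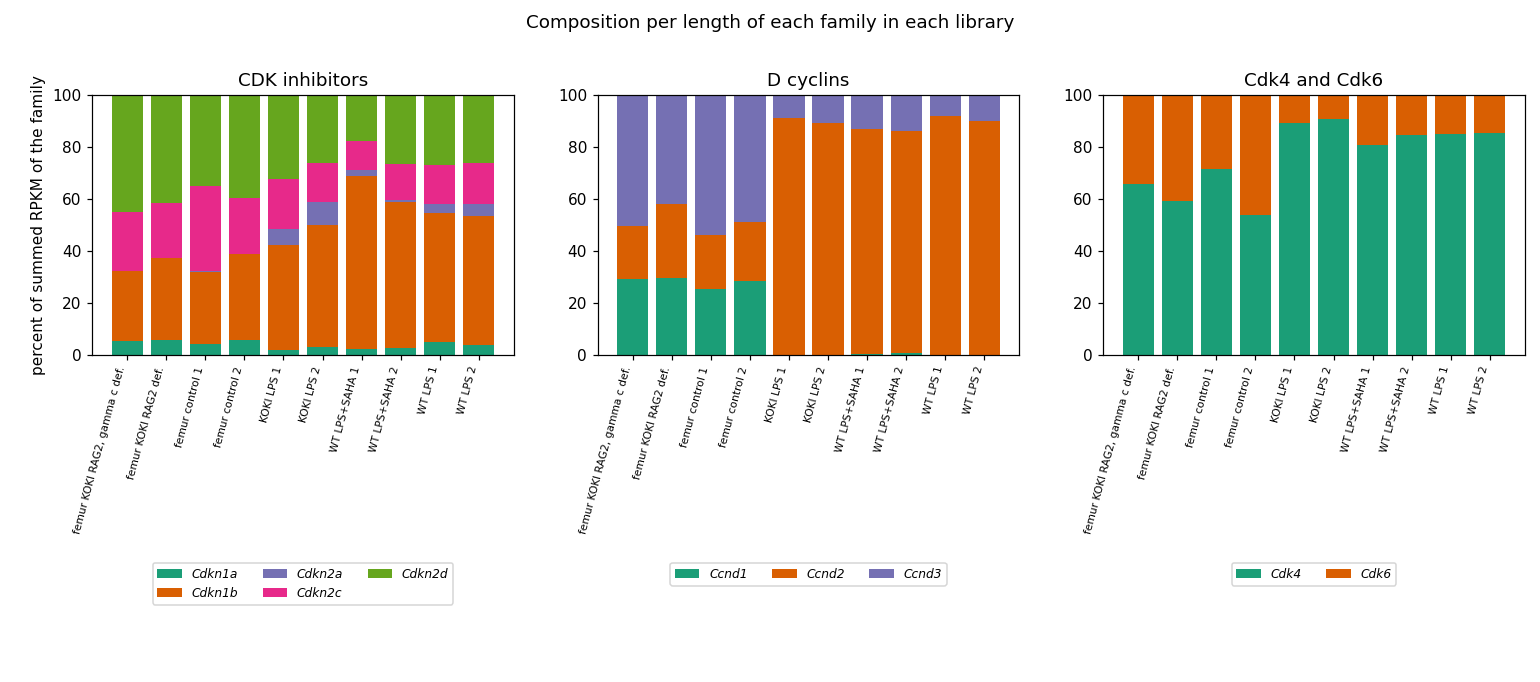
Percent of summed RPKM that each gene contributed to its family (CDK inhibitors, D cyclins, Cdk4 and Cdk6), 1 stacked bar per library. Ccnd2 filled 20.7% to 28.4% of the D cyclin bar in the femoral libraries and 85.6% to 92.2% in the splenic ones.

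In the femoral cells, the fitted log2 fold change of KOKI over control pools was positive for 9 of the 9 genes tested, against 48.6% of all genes, and none passed the test. The median was 0.30, against -0.02 over all genes, and the sign of Cdkn2c, Ccnd3, Cdk4 and Cdk6 turned when single libraries were left out. The count was 0 of 9 by edgeR, where 0.0301% of 16624 genes passed, which is 5 genes. At an unadjusted p under 0.05 by edgeR there was 1, Cdkn2d, where 2687 of the 16624 genes were. DESeq2 called 0, against 688 of all genes. Cdkn2d had 49.0 and 51.2 CPM in the KOKI pools (RAG2 and gamma c deficient first, RAG2 deficient second, here and below), against 30.2 and 36.6 CPM in control pools. The groups did not overlap, and the log2 fold change was 0.61 (SE 0.18, edgeR adjusted p = 0.179). Cdkn1a had 9.74 and 12.0 CPM in KOKI pools, against 6.13 and 9.05 CPM in control pools, a log2 fold change of 0.55 (SE 0.28, edgeR adjusted p = 0.382). Cdkn1b had 106 and 140.0 CPM in KOKI pools, against 86.2 and 110.1 CPM in control pools, and these overlapped.

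The femoral D cyclins and kinases overlapped between genotypes or lay close together. Ccnd1 had 44.0 and 48.1 CPM in KOKI pools, against 33.7 and 42.4 CPM in control pools, a log2 fold change of 0.30 (SE 0.18, edgeR adjusted p = 0.453). Ccnd2 had 76.8 and 113 CPM in KOKI pools, against 67.4 and 83.8 CPM in control pools. Ccnd3 had 173 and 156 CPM in KOKI pools, against 164 and 168 CPM in control pools. For Ccnd3 the log2 fold change was 0.01 (SE 0.19). Cdk4 had 143 and 129 CPM in KOKI pools, against 162 and 103.9 CPM in control pools. Cdk6 had 318 and 382 CPM in KOKI pools, against 277 and 381 CPM in control pools. Cdkn2c had 52.5 and 54.5 CPM in KOKI pools, against 59.9 and 43.0 CPM in control pools. Of Cdkn2a the KOKI pools held 0 and 1 counts and the control pools 6 and 0 counts, and it was not tested.

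Leaving out either control pool left 1 control library, which is then assumed to vary like the 2 KOKI pools, and these differ in gamma c. Calls over all genes then rose to 12.2% of 17258 genes without the first control pool and 19.9% of 17362 without the second. Among the members Cdkn2d passed without the first, and Cdkn1a, Cdkn1b and Cdkn2d without the second. The 10 bone and stroma markers moved with genotype, summing to 2727 and 2595 CPM in KOKI pools, against 794 and 1640.1 CPM in control pools. Of these 10 markers, 8 had a higher fitted value in KOKI, against 48.6% of all genes. None of the markers passed, where 0.0301% of all genes did. Their part in the values above was not tested.

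Set against WT LPS cultures, the femoral control pools held a different set of D cyclins: Ccnd1 and Ccnd3 were higher and Ccnd2 lower. Of the 10 genes 5 were higher, 3 lower and 2 not called (edgeR), where 42.4% of 20204 genes differed, 21.3% higher and 21.1% lower. Tissue, culture, LPS and genotype differ together between these groups and cannot be told apart. Ccnd1 summed to 2553 counts in femoral control pools and to 3 counts in WT LPS cultures, a ratio of 635 after scaling (95% exact interval 217 to 3081, counting error only). Ccnd3 was higher by a log2 fold change of 1.32 (SE 0.18, edgeR adjusted p = 0.000118), and Bysl on its other strand was lower by -1.24 (SE 0.19). Ccnd2 was lower by a log2 fold change of -3.29 (SE 0.22, edgeR adjusted p = 3.41e-07).

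The INK4 genes split in the same contrast. Cdkn2c and Cdkn2d were higher in femoral control pools, by log2 fold changes of 1.24 (SE 0.21, edgeR adjusted p = 0.00055) and 0.91 (SE 0.20, edgeR adjusted p = 0.00281). Cdkn2a was lower, with 6 counts in femoral control pools and 125 counts in WT LPS cultures, a ratio of 0.0358 (95% exact interval 0.0129 to 0.0802). Of the kinases, Cdk6 was higher by 1.01 (SE 0.20, edgeR adjusted p = 0.00182) and Cdk4 lower by -0.72 (SE 0.23, edgeR adjusted p = 0.0226), the Cdk4 call ending under other scaling (edgeR adjusted p = 0.0773) and without the second femoral control pool (log2 fold change -0.30, edgeR adjusted p = 0.235) or either WT LPS library (edgeR adjusted p = 0.138 and 0.0778). Cdkn1a at 0.61 (SE 0.37) and Cdkn1b at -0.29 (SE 0.22) did not pass. In RPKM the 4 femoral libraries divided D cyclins among Ccnd3 (42.0% to 53.9%), Ccnd1 (25.4% to 29.6%) and Ccnd2 (20.7% to 28.4%), and Cdk4 made up 54.0% to 71.6% of kinase RPKM.

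The KOKI effect in splenic cultures was also tested against that in femoral cells. None of the 10 genes passed by edgeR, where 1.81% of 18266 genes did, and DESeq2 called 0. At an unadjusted p under 0.05 by edgeR there were 2 of the 10, where 3056 of the 18266 genes were. These 2 were Cdkn1a, with a splenic minus femoral log2 difference of -1.28 (SE 0.49, edgeR adjusted p = 0.221), and Cdk6, with -0.70 (SE 0.26, edgeR adjusted p = 0.204).

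Genes that act with the switch were counted by list. With SAHA, the 22 E2F-driven genes of the G1 to S transition were counted first: 12 of the 22 fell, 10 missed the threshold and 0 rose. Of all 15342 genes tested, 3.69% fell and 0.952% rose. All 22 had negative values, where 51.1% of all genes had positive ones. Their median log2 fold change was -0.69, against 0.02 over all genes. Cdc45, part of the replicative helicase, had 33.5 and 32.5 CPM in WT LPS+SAHA cultures, against 76.9 and 64.4 CPM in WT LPS cultures, and fell by 1.04 on the log2 scale. Rrm2, a subunit of ribonucleotide reductase, fell by 1.04, Orc1, which marks replication origins, by 0.89, and the helicase subunit Mcm6 by 0.82. With the replicate number as a block all 22 passed, and without either SAHA library or the first WT LPS library 0 did, as no gene of the whole table passed there. Without the second WT LPS library 5 passed, and without the first or the second KOKI library 2 and 3 did.

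Among cyclin E and A kinases 3 of 8 tested fell with SAHA and 0 rose, where 3.69% of all genes fell and 0.952% rose. Ccna2, the S phase cyclin A, had 114 and 125 CPM in WT LPS+SAHA cultures, against 264 and 251 CPM in WT LPS cultures. It fell by 1.05 on the log2 scale and Cdc25a, the phosphatase that activates CDK2, by 0.57, and Ccne2 had 41.5 and 37.3 CPM in WT LPS+SAHA cultures, against 95.9 and 68.7 CPM in WT LPS cultures. Of the other CDK inhibitors Cdkn3, a phosphatase of CDKs with peak expression in dividing cells, fell by 1.22. In the list on turnover of CDK inhibitors and cyclins 3 of 16 tested fell and 0 rose: Cks1b, which helps SKP2 bind p27, by 0.87, Dtl by 0.65 and Cul4b by 0.59, which both serve an E3 ligase for p21. Among the retinoblastoma family and E2F genes themselves 0 of 17 passed, where 4.64% of all genes did, at a median of -0.33.

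Of 24 tested upstream regulators 2 rose and 4 fell with SAHA, where 0.952% of all genes rose and 3.69% fell. Prdm1, which encodes BLIMP1 and is also a plasmablast marker here, had 87.6 and 79.8 CPM in KOKI cultures and 11.7 and 11.6 CPM in WT LPS+SAHA cultures, against 31.9 and 32.9 CPM in WT LPS cultures. It fell by 1.42 on the log2 scale with SAHA and was higher by 1.41 in KOKI over WT LPS cultures. Bcl6, the germinal centre repressor, rose by 1.16 with SAHA. Polycomb complexes repress Cdkn2a in many cells, and of their genes on the list Cbx7 rose by 0.78. Suz12, Ezh2 and Bmi1 had log2 fold changes of -0.73, -0.65 and -0.56, and all of these passed. Eed, another Polycomb gene, had -0.37 and did not pass (edgeR adjusted p = 0.164). Of 22 tested p53 target genes 1 rose and 3 fell, with Sesn2 at -1.26, Gtse1 at -0.94, Sesn1 at 0.72 and Ccng1 at -0.66. Of 15 tested quiescence genes 1 rose, Txnip by 0.70, and 13 had positive values (median 0.39). Over all genes 51.1% had positive values, with a median of 0.02.

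In KOKI over WT LPS cultures 4.08% of all 15342 genes tested passed. Higher were 1 of 8 tested cyclin E and A kinases, 1 of 24 upstream regulators and 1 of 22 G1 to S genes. Of 15 quiescence genes 1 was higher and 1 lower. None passed of 2 other CDK inhibitors, 17 retinoblastoma family and E2F genes, 16 turnover genes and 22 p53 targets. Whether any list differed from all genes was not tested. Ccne1, a cyclin of CDK2, was higher by a log2 fold change of 0.64 and the replication licensing gene Cdc6 by 0.57. Ccng2, a cyclin linked to cell-cycle arrest, was also higher, with 52.8 and 67.5 CPM in KOKI cultures, against 33.5 and 28.3 CPM in WT LPS cultures (edgeR adjusted p = 0.0135). S1pr1, an egress receptor high in resting lymphocytes, was lower, with 33.4 and 39.5 CPM in KOKI cultures, against 72.9 and 76.8 CPM in WT LPS cultures (edgeR adjusted p = 0.00649). The calls on Ccne1 and Cdc6 ended without any 1 of the 6 splenic libraries. The 22 genes of the G1 to S list had a median of 0.12 with 1 rise, against -0.02 over all genes. In KOKI over WT LPS+SAHA cultures 21 of those 22 genes passed as higher, where 14.1% of all genes did. Their median was 0.81, against -0.03 over all genes. Cdkn2b, which encodes the INK4 protein p15 next to Cdkn2a, had 2.67 and 2.33 CPM in KOKI cultures, against 0.0564 and 0.416 CPM in WT LPS+SAHA cultures, with 1.58 and 1.31 CPM in WT LPS cultures. Its log2 fold change in KOKI over WT LPS+SAHA was 3.30 (SE 0.76, edgeR adjusted p = 0.0189). This value rests on few counts in the WT LPS+SAHA libraries, where 4 and 20 counts of Ccnd1 stood at 0.226 and 0.924 CPM. In femoral KOKI over control pools 0 genes of any of these lists passed by edgeR, where 0.0301% of all 16624 genes tested did.

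**Figure D4:**
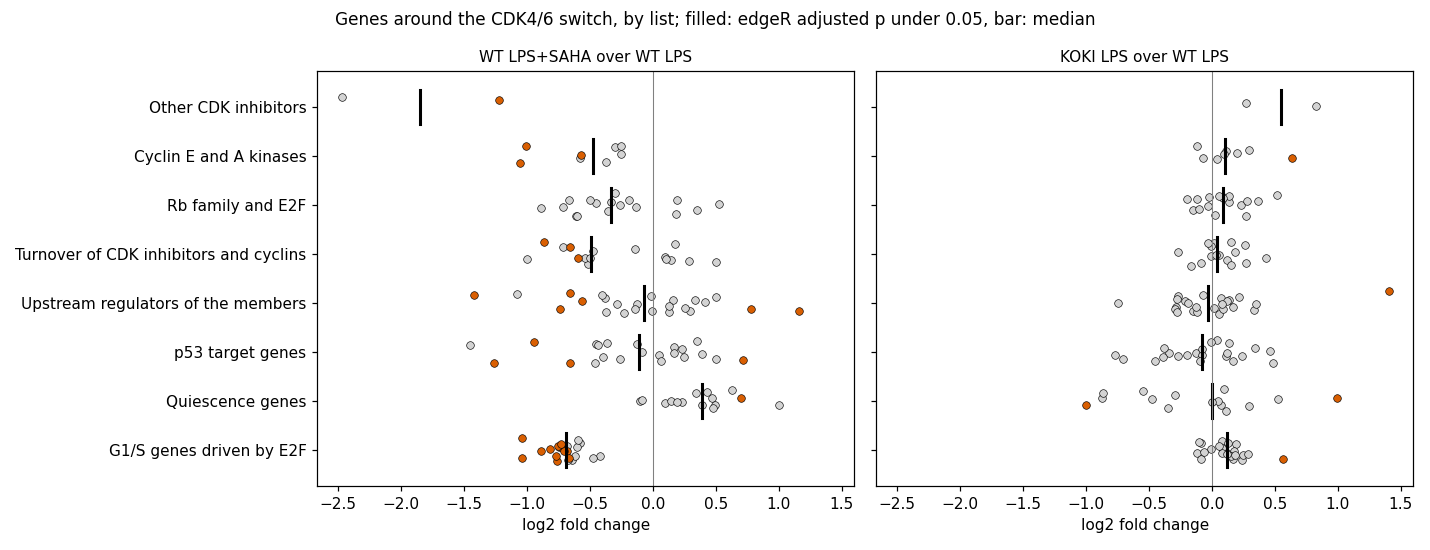
Fitted log2 fold change of each tested gene by list (points, spread vertically for visibility), filled where the edgeR adjusted p was under 0.05, with the list median as a bar, in SAHA (left) and KOKI (right) over WT LPS. With SAHA the E2F-driven genes lay at a median of -0.69, all 22 below 0, and in KOKI cultures at 0.12.

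The genes most like Ccnd2 and Cdk4 across the 6 splenic libraries were taken by the smallest root mean square difference of centred log2 CPM. For Ccnd2 these were Gtpbp4 at 0.018, Lancl2 at 0.032 and Hspa9 at 0.041. For Cdk4 they were Uba2 at 0.029, Grsf1 at 0.031 and Knop1 at 0.034. Gtpbp4 had 156 and 155 CPM in KOKI cultures and 118 and 109 CPM in WT LPS+SAHA cultures, against 192 and 182 CPM in WT LPS cultures, the same order of groups as Ccnd2.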

How the data were processed

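RNA was sequenced from 10 libraries made, per the labels' protocols, from 500 ng of total RNA with a stranded total RNA kit. The authors deposited a single table of unnormalised integer counts by gene. It was made with STAR 2.4.0a and featureCounts of Subread 1.4.6-p1 on mm10, per the submitters' processing notes. How strand and multiply matching reads were handled is not given in the sources used here. The table also held 100 spike-in and phiX entries, which summed to 1 to 17 counts per library and were left out. Totals were 18614742 to 29314068 counts.

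Counts were tested with edgeR 4.0.16 in R 4.3.3: TMM scaling, filterByExpr (minimum count 10, minimum total 15), quasi-likelihood F test, Benjamini-Hochberg adjustment over all genes tested and a threshold of 0.05. The splenic contrasts came from 1 fit of the 6 splenic libraries, the femoral KOKI contrast from the 4 femoral libraries, and the tissue contrast and the difference of KOKI effects from all 10. Printed CPM use TMM over all 10 libraries, which differs from the scale of a fit by up to -0.0548 on the log2 scale. RPKM divide CPM by the deposited exon length and serve only to compare genes. DESeq2 1.42.0, another scaling, no filter, fits of other libraries, removal of immunoglobulin genes and of single libraries, and the replicate number as a block were alternatives. The procedure was tested on simulated data.

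The labels do not say that replicates were separate cultures, so p-values reflect only how these samples vary, in part perhaps technically. Chi-square per degree of freedom between replicates was 44.1 to 161, so none were copies. Names of the WT libraries numbered 1 and 2 share the stems B6_1 and B6_2 with and without SAHA, which were taken to mark the same mouse, and their deviations correlated at 0.362 over 15342 genes. Gm10800 was the top gene in both WT libraries numbered 2, with 5.47% of counts without and 6.04% with SAHA, and Rn7sk in the other splenic libraries. The source of the correlation was not tested. KOKI and WT libraries share only a number. SAHA library names contain D3, while the protocol gives 2 days, and the design text gives 2 pools for each femoral genotype. Intervals and limits for 0 counts cover counting error only, since reads carry no molecular identifiers. The members, lists and tests were chosen with earlier results of these data known. Named genes were all 10 members, up to 4 called genes with the largest change per list, and the 3 genes most like each called member. Ezh2, Bmi1 and Eed were named besides, as further Polycomb genes of their list.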

Additional observations from a re-analysis of the deposited data

Results flagged for a closer look

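For 3 of the 130 tested genes on the lists around the switch (2.31%, against 1.81% of all 18266 genes tested), the KOKI effect in splenic cultures differed from that in femoral cells by a test of the difference itself (edgeR, all 10 libraries). Rb1, which encodes the retinoblastoma protein, differed by 1.08 on the log2 scale (SE 0.21, edgeR adjusted p = 0.0284), with a KOKI effect of 0.37 in spleen and -0.75 in femur. It had 117 and 99.2 CPM in KOKI cultures, against 86.5 and 85.3 CPM in WT LPS cultures, and 96.9 and 88.5 CPM in femoral KOKI pools, against 156 and 161 CPM in femoral control pools. Id3, an inhibitor of E proteins, differed by -2.14 (SE 0.33, edgeR adjusted p = 0.0114), with -0.75 in spleen and 1.35 in femur, where its levels were 5.05 and 6.25 CPM in KOKI pools and 1.81 and 2.70 CPM in control pools. Pmaip1, a p53 target that promotes cell death, differed by -1.46 (SE 0.29, edgeR adjusted p = 0.0341), with -0.77 in spleen and 0.65 in femur. None of these 6 effects within a tissue passed by itself, with edgeR adjusted p of 0.0700 to 0.216. Bone and stroma markers summed to 2727 and 2595 CPM in femoral KOKI pools, against 794 and 1640.1 CPM in control pools, and their part in these differences was not tested.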

How the results depend on the processing

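Counts of called genes changed more with the settings than fold changes did. With SAHA over WT LPS, 712 genes were called, and 1970 with no low-count filter, 1721 with DESeq2, 0 in a fit of the 4 compared libraries, 211 in a fit of all 10 and 0 to 290 without single libraries. Of the members, 2 were called, against 0 with RLE size factors, with the 4 or all 10 libraries and without any single library. For KOKI over WT LPS the 626 called genes became 1254 with no filter, 1097 with DESeq2 and 270 to 708 without single libraries, and 1 member in place of 0 was called with no filter and with DESeq2. For KOKI over WT LPS+SAHA, 3639 genes became 1703 to 3463 without single libraries, and the 3 called members became 1 to 3 without single libraries. With all 10 libraries none of those 3 passed. Ccnd1, too scarce to be tested in the splenic fit, was called lower there, in a fit whose femoral pools held 984 to 1398 counts of it. That call rests on 0 and 0 counts in KOKI libraries against 4 and 20 in WT LPS+SAHA libraries and is not read as a result. For femoral KOKI over control, 5 genes became 0 with RLE, with all 10 libraries and on the matched background, 662 with no filter, 688 with DESeq2 and 13 to 3456 without single libraries, and 0 to 3 members were called without single libraries. For the difference of KOKI effects, 331 genes became 1142 with no filter, 877 with DESeq2 and 70 to 935 without single libraries. The cause was not tested.

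With the replicate number as a block, SAHA over WT LPS gave 3413 genes and 4 members. KOKI and WT libraries share a number only (correlation of deviations 0.0786), and that block gave 1313 genes and 1 member, Cdk6, in KOKI over WT LPS. Under the block Cdkn1a in KOKI over WT LPS+SAHA stood at -0.0456, against 0.0168 without it.

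Signs turned for values that passed no test. For SAHA over WT LPS, Ccnd3 was 0.00542 with RLE and 0.00539 with DESeq2, and -0.168 to 0.128 without single libraries. For KOKI over WT LPS, Cdkn1b was -0.0330 with no filter, -0.0192 with all 10 libraries and -0.131 to 0.130 without single libraries, over which Ccnd3 ranged between -0.271 and 0.0658 and Cdk4 between -0.0143 and 0.200. For KOKI over WT LPS+SAHA, Cdkn1a was -0.00759 with RLE, -0.00811 with DESeq2, -0.0192 with the 4 libraries and -0.321 to 0.346 without single libraries, and Ccnd3 was -0.222 to 0.0888. For femoral KOKI over control, Cdk6 was -0.0316 on the matched background. Without single libraries it was -0.0587 to 0.330, Cdkn2c -0.171 to 0.376, Ccnd3 -0.0412 to 0.0940 and Cdk4 -0.266 to 0.448. The difference of KOKI effects ranged, without single libraries, between -1.33 and 5.20 for Cdkn2a, -0.0235 and 0.515 for Cdkn2c, -0.302 and 0.0183 for Ccnd3 and -0.346 and 0.360 for Cdk4. RLE moved the median of all genes in femoral control over WT LPS to 0.172, against 0.0159.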
